A study of Caenorhabditis elegans with 31 samples.

Results

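Adult Caenorhabditis elegans of an F1 generation labelled 0.5% ethanol were compared with F1 adults labelled 0.05% ethanol, by counting RNA in single nuclei. All libraries of batch 5 whose titles name these unsorted F1 samples were taken, which gave 3 libraries of each dose, 6 of the 31 in the series, with the replicate number joining 1 library of each dose into a pair. The 6 libraries held 16440 of 85180 nuclei. All groups used here were whole bodies of 1 strain, JK560, which carries fog-1(q253) I, so the water control carried this allele too. Worms were raised on OP50 bacteria, moved as L1 larvae to 25 °C and collected as adults, after 48 h at 25 °C (day 2 of adulthood) by the growth protocol and after 62 h by the treatment protocol. The labels do not say how ethanol was given, whether F1 worms met it themselves, or what a replicate number marks. p-values therefore measure the spread between these libraries, which may be technical. The 3 water F1 libraries of batch 5 entered the fits to estimate the spread, and the F3 libraries of the same doses in batch 4 (3 of each) are set beside the F1 values.

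Ethanol is oxidised in the worm by alcohol dehydrogenases, among them SODH-1, and then by aldehyde dehydrogenases, and its action on behaviour runs largely through the potassium channel SLO-1. Stress caused by alcohols and other agents that unfold proteins is known to switch on heat-shock genes through the factor HSF-1. The gene fog-1 is needed for germ cells to become sperm. The worms collected here, kept at 25 °C from the L1 stage, held a germline with oocytes and, per the labels, no fertilised embryos. In whole libraries the 6 sperm markers summed to between 0.447 and 5.57 CPM (counts scaled to a common library total of 1e6) and 1 of them, ssp-16, was at 0, while the 8 oocyte markers summed to between 3816 and 5664 CPM.

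The depth of the libraries followed the replicate number. Number 2 was the shallowest in both doses, with 1162 nuclei and 1279752 UMIs at 0.05% and 1155 nuclei and 1218248 UMIs at 0.5%, where a UMI is the tag of 1 captured RNA molecule. The other 4 libraries held 2836 to 4692 nuclei and 5586445 to 9257976 UMIs. The ribosomal RNA gene rrn-3.1 took 10.1% and 10.48% of UMIs in the libraries of number 2, 3.53% and 4.08% in those of number 3 and 0.908% and 0.910% in those of number 1. Any 2 of the 6 libraries shared 14 to 45 cell barcodes, at most 2.34% of the smaller one. Over 6873 genes with at least 20 CPM, the replicate number carried 79.2% of the variation between the 6 libraries, the dose 5.74% and the remainder 15.1%. These shares had 2, 1 and 2 degrees of freedom in this order, and the dose share was not tested against the remainder. The replicate number was kept as a block in the edgeR and DESeq2 fits below, but not in the permutation test of class shares.

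The first question was whether the makeup of the worms, as seen in nuclei, differed between the doses. Nuclei fell into 23 clusters, of which 16 were named from markers and joined into 9 classes. Germline-like nuclei were the most frequent class in all 6 libraries, with 27.8%, 30.4% and 30.2% of nuclei at 0.05% ethanol and 34.8%, 31.3% and 29.6% at 0.5% (replicate numbers 1, 2 and 3 in this order, here and below). The groups overlapped, with means of 29.5% ± 1.42 and 31.9% ± 2.63 (SD, n = 3 each). Uterus-like nuclei took 8.52%, 6.52% and 7.65% at 0.05% and 5.78%, 5.77% and 7.71% at 0.5%. Intestine-like nuclei averaged 10.6% ± 2.37 at 0.05% and 10.3% ± 1.32 at 0.5%, and body wall muscle-like nuclei 10.6% ± 0.352 and 9.69% ± 1.31. Neuron-like nuclei averaged 5.32% ± 1.54 and 5.103% ± 0.531, and pharyngeal muscle-like nuclei 4.598% ± 1.76 and 4.13% ± 0.676. The rare gonadal sheath-like, coelomocyte-like and epidermis-like classes stood at 1.00% ± 0.599, 0.802% ± 0.308 and 0.563% ± 0.0527 at 0.05% and at 1.20% ± 0.275, 0.528% ± 0.0853 and 0.448% ± 0.120 at 0.5%.

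In each of the 9 classes the libraries of the 2 doses overlapped. The exact two-sided permutation test of 3 against 3 gave p of 0.3 or more for each class, and 0.675 or more after Benjamini-Hochberg adjustment; its smallest possible p is 0.1, so it could not have called a class. At the finer level of clusters, edgeR's quasi-likelihood test called 0 of 23 shares (0.0%) at an adjusted p below 0.05 and 0 at an unadjusted p below 0.05, and DESeq2 also called 0. The smallest p belonged to cluster 8, a part of the uterus-like class, which held 5.24%, 4.00% and 3.82% of nuclei at 0.05% and 3.34%, 2.97% and 3.77% at 0.5%. Its 2 groups did not overlap, its log2 difference was -0.36 (95% interval -0.79 to 0.07), and its adjusted p was 0.693 in edgeR's test. For coelomocyte-like nuclei (cluster 23) the interval reached from -1.19 to 0.21 on the log2 scale, so a share lower by more than a factor of 2 was within it.

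**Figure D1:**
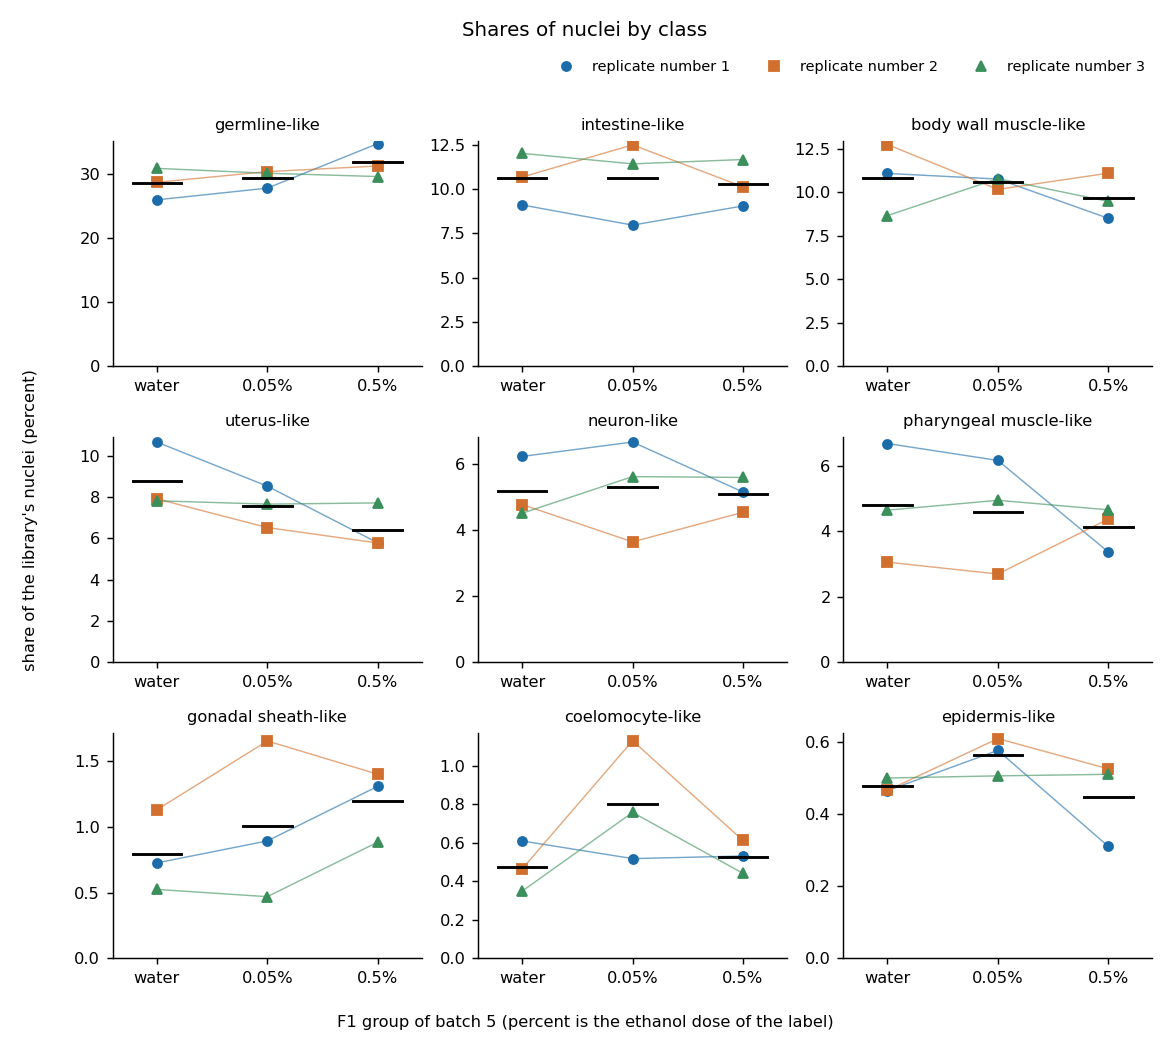
Shares of nuclei (percent of the library's nuclei, linear axis from 0) in 9 classes for the water, 0.05% and 0.5% ethanol F1 groups of batch 5. Points are libraries, thin lines join libraries with the same replicate number and black bars are means of 3 libraries; in each class the 0.05% and 0.5% points overlap.

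Genes were next compared in whole libraries, where counts of all nuclei are summed. In such sums, fewer nuclei of a type and less RNA per nucleus cannot be told apart. edgeR called 0 of 12946 genes (0.0%) at an adjusted p below 0.05, and DESeq2 with the same block called 0 as well. At an unadjusted p below 0.05 there were 301 genes (2.33%), of which 130 (1.0%) were higher and 171 (1.32%) lower at 0.5% ethanol. The median log2 difference over all tested genes was -0.013, and 46.8% of genes were above 0. Among the 7001 genes averaging 20 CPM or more at either dose, 99.0% had a 95% interval inside a doubling or halving (log2 -1 to 1), against 75.8% of all 12946. A change of more than 2 times was thus outside the interval of nearly all well-counted genes but not of many weak ones. Leaving out replicate number 2, with its high ribosomal RNA, also gave 0 calls.

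Since no gene passed, the 5 genes of each direction with the smallest p, at least 20 CPM and the same sign in the 3 pairs are given as values. Their levels are CPM scaled by TMM factors, a correction of library size. pept-1, the intestinal peptide transporter, stood at 16.7, 12.7 and 26.6 CPM at 0.05% and at 24.2, 21.1 and 43.3 CPM at 0.5%. The 0.5% library was the higher one in each pair, the groups overlapped, and the fitted log2 difference was 0.64 (SE 0.16; edgeR adjusted p = 1.0). csp-1, a caspase gene, read 9.25, 18.3 and 15.9 CPM against 18.01, 34.1 and 20.7 CPM, a log2 difference of 0.71 (SE 0.20). ilys-2, a lysozyme of the invertebrate type, read 11.2, 5.57 and 20.4 CPM against 24.7, 5.69 and 31.3 CPM. Its pair of number 2 was nearly level, with 7 counts in each library, and its log2 difference was 0.79 (SE 0.22), or 0.48 without number 1 of 0.05%. dct-18 and D1054.18 had log2 differences of 0.39 (SE 0.12) and 0.90 (SE 0.29), and D1054.18 overlaps the noncoding gene D1054.23 on the same strand. Without replicate number 1 the difference of D1054.18 was 0.48.

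In the other direction, twk-1, a potassium channel gene, stood at 46.1, 27.04 and 27.5 CPM at 0.05% and at 25.9, 21.9 and 19.4 CPM at 0.5%. The 3 libraries of the higher dose all lay below the 3 of the lower dose, as they did for 2.03% of all tested genes, and the log2 difference was -0.61 (SE 0.17; edgeR adjusted p = 1.0). nlp-20, which encodes a neuropeptide-like protein, read 69.7, 37.4 and 79.5 CPM against 46.5, 35.7 and 27.5 CPM, a log2 difference of -0.85 (SE 0.21). It was -0.50 without number 3 of 0.05%, -0.51 without number 3 of 0.5% and -0.40 without replicate number 3. hsp-12.3, a small heat-shock protein gene, read 111, 42.1 and 78.9 CPM against 68.9, 31.7 and 48.9 CPM, a log2 difference of -0.65 (SE 0.17). C41G11.1 and C15A11.7 had log2 differences of -0.86 (SE 0.19) and -0.72 (SE 0.20), the latter -0.40 without replicate number 1. Without the filter on low counts, edgeR called nlp-20 (log2 -0.84) and C41G11.1 (log2 -0.86). C41G11.1 lies opposite cyp-43A1, so reads of the 2 genes may mix where counting ignored the strand. Beside water, the groups were not ordered alike: nlp-20 averaged 42.8 CPM in water, between 36.6 CPM at 0.5% and 62.2 CPM at 0.05%, while hsp-12.3 averaged 79.03 CPM in water and 77.4 CPM at 0.05%.

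**Figure D2:**
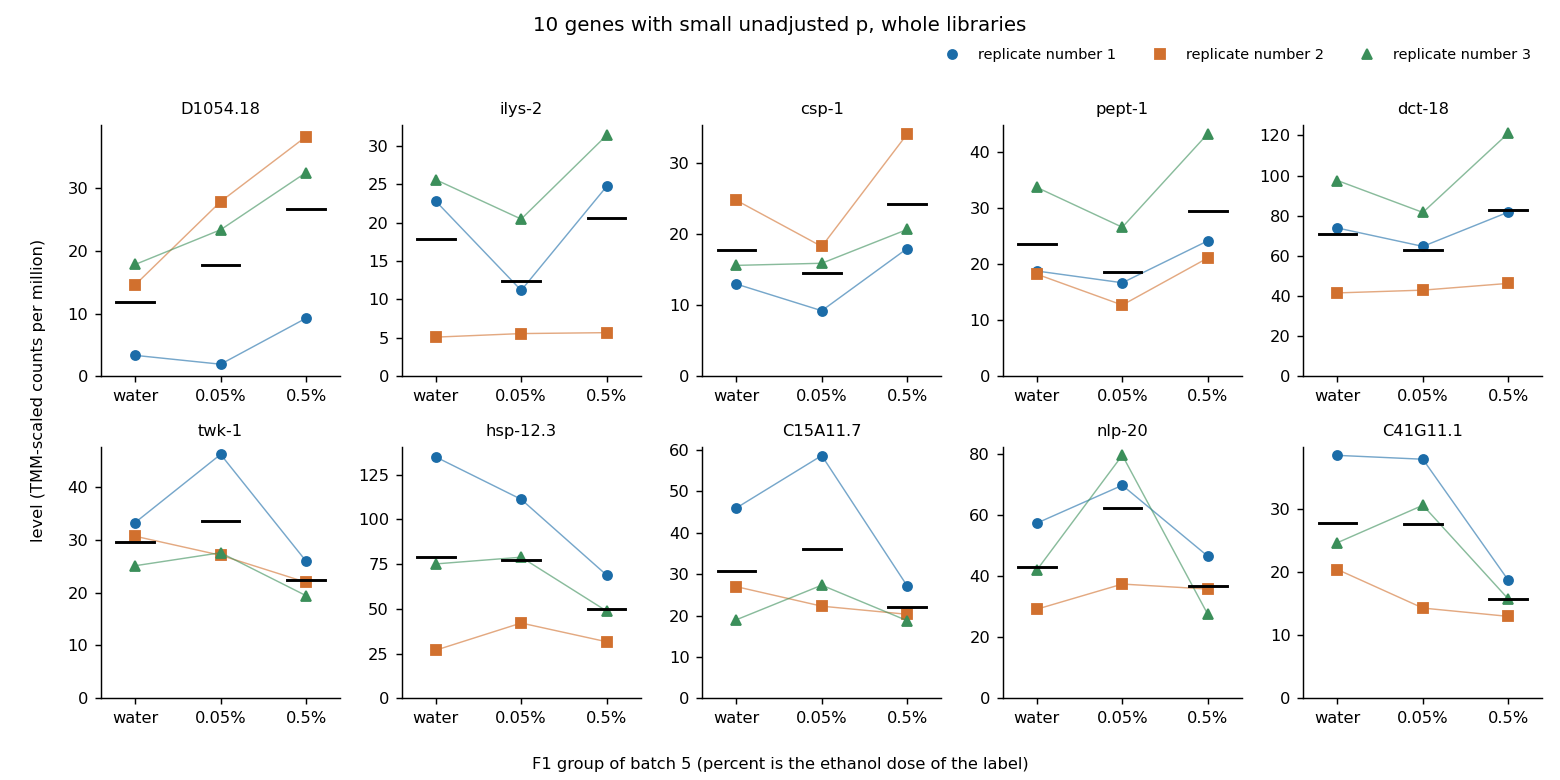
Levels (TMM-scaled CPM, linear axes from 0) of the 10 genes with the smallest unadjusted p among those of at least 20 CPM with 1 sign in the 3 pairs, in the 9 F1 libraries of batch 5. Points are libraries, lines join replicate numbers and black bars are means of 3 libraries; the spread between replicate numbers is often wider than the step from 0.05% to 0.5%, and twk-1 alone has dose groups that do not overlap.

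Genes of ethanol breakdown were close to level. Of 16 alcohol and aldehyde dehydrogenase genes, 14 were tested, 0 were called or had an unadjusted p below 0.05 in edgeR's test, and the median log2 difference was -0.034, beside -0.013 for all genes. sodh-1, the alcohol dehydrogenase gene named above, read 193, 73.2 and 166 CPM at 0.05% and 143, 89.4 and 167 CPM at 0.5%, so the groups overlapped fully. The most abundant members were alh-8, at 1069 ± 212 and 1012 ± 169 CPM (SD, n = 3 each), and alh-9, at 361 ± 43.9 and 317 ± 49.9 CPM. For all 14, the 95% interval of the difference lay within log2 -1 to 1. Among 15 tested genes of the neuronal response to ethanol 0 were called or had an unadjusted p below 0.05 in edgeR's test, and the median was -0.024. slo-1 was weakly counted in nuclei, with 10.3, 7.16 and 5.61 CPM against 6.89, 9.75 and 4.46 CPM, and its interval reached from -0.91 to 0.31.

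The list named inducible heat-shock genes had the lowest median. It also holds the small heat-shock protein genes hsp-12.3 and hsp-12.6, and whether each member is inducible was not tested here. Of 11 genes, 8 were tested, 7 of them had a fitted difference below 0, and the median log2 difference was -0.55. None was called. In edgeR's test 3 of them, hsp-12.3, hsp-70 and hsp-16.41, had an unadjusted p below 0.05. All 3 were lower, as 1.32% of all genes were at this p. The gene hsp-16.2, given below, was not among the 3. hsp-70, a stress-induced chaperone gene, stood at 24.9, 32.6 and 17.4 CPM at 0.05% and at 15.4, 9.75 and 12.7 CPM at 0.5%. The groups did not overlap, and the log2 difference was -0.80 (SE 0.25; edgeR adjusted p = 1.0). hsp-16.41, a small heat-shock gene, read 80.5, 57.3 and 79.5 CPM against 53.3, 41.4 and 51.6 CPM, also without overlap (log2 -0.59, SE 0.20), and its difference was -0.37 without number 1 of 0.5%. hsp-16.2, a common reporter of heat stress in worms, read 53.8, 53.3 and 54.8 CPM against 38.4, 33.3 and 42.2 CPM, again without overlap (log2 -0.51, SE 0.29). The 3 libraries of 0.5% lay below all 3 of 0.05% for 2.03% of all tested genes. Leaving out single libraries moved hsp-16.2 to between -0.79 (without number 1 of 0.05%) and -0.23 (without number 1 of 0.5%), with -0.28 without number 2 of 0.05%. Water stood higher and wider: hsp-16.2 was at 160, 35.7 and 89.6 CPM, and hsp-70 at 69.6, 41.6 and 29.2 CPM, so for both genes a library of water fell within the range of an ethanol group. The list's median was -0.89 for 0.05% against water and -1.53 for 0.5% against water; these values share the water libraries, and neither dose had a called gene in edgeR's test. The summed level of the list was 282, 212 and 253 CPM at 0.05%, 184, 136 and 172 CPM at 0.5%, and 590, 198 and 326 CPM in water. Counts of hsp-16.11, F44E5.4 and F44E5.5 are uncertain, since each of these genes has a near-identical copy. Other stress genes, chaperones of the endoplasmic reticulum and mitochondria (14 tested, median -0.028) and metallothioneins (2 tested, -0.29 and -0.15), had 0 calls and 0 genes at an unadjusted p below 0.05 in edgeR's test.

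**Figure D3:**
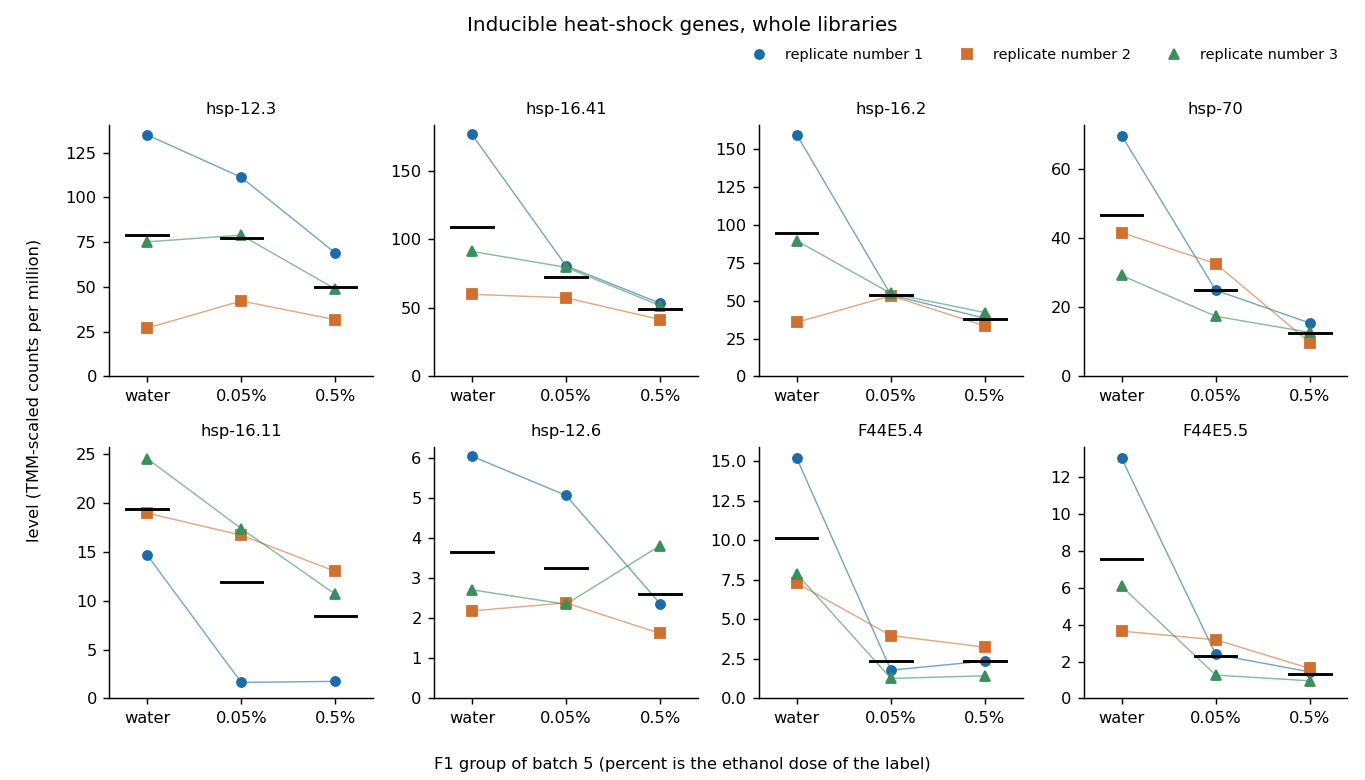
Levels (TMM-scaled CPM, linear axes from 0) of the 8 tested genes of the inducible heat-shock list in the water, 0.05% and 0.5% ethanol F1 libraries of batch 5. Points are libraries, lines join replicate numbers and black bars are means of 3 libraries. hsp-70, hsp-16.41 and hsp-16.2 have dose groups that do not overlap, with the 0.5% libraries lower, as for 2.03% of all tested genes. The water libraries spread widely.

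Cuticle collagens split by level. These genes encode the main proteins of the worm's outer coat, with sets made at each moult and a smaller set made in adults. Of 178 genes 101 passed the filter on low counts, and 0 were called in edgeR's test. All 25 collagens with a mean of at least 100 CPM had a fitted difference below 0, from -0.37 to -0.073 with a median of -0.19. The leading members col-119 and col-140 averaged 6968 ± 1119 and 5991 ± 549 CPM at 0.05% and 5757 ± 89.4 and 5360 ± 497 CPM at 0.5% (SD, n = 3 each). Abundant genes of other lists leaned the same way. All 6 neuropeptide genes of at least 100 CPM were below 0, while of the weaker ones 54 were above and 59 below. Of the 58 genes that are the 2 most abundant members of each list, 45 were below 0. Of the 76 collagens below 100 CPM, 59 were above 0, with a median of 0.45. At an unadjusted p below 0.05, 17 of the 101 collagens were higher and 2 (col-98 and col-139) lower. The 17 included the moult-related genes dpy-4, dpy-13, dpy-5 and bli-1, and 1.0% of all tested genes were higher at this p. dpy-4 read 1.34, 0 and 10.1 CPM at 0.05% and 5.97, 2.44 and 20.4 CPM at 0.5%. The value at 0.5% was higher in each pair, but the groups overlapped (log2 1.44, SE 0.34; edgeR adjusted p = 1.0). The difference was 2.25 without number 3 of 0.05% and 2.32 without replicate number 3. col-175 did not overlap, with 1.34, 0.795 and 3.44 CPM against 5.25, 8.12 and 9.23 CPM, an order of groups that 2.22% of all tested genes had. Without the filter on low counts, edgeR called dpy-4 (log2 1.44) and col-175 (log2 1.95). A weak gene passes the filter only where some libraries count it, so these shares describe the genes that passed and are no test of the list.

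The counts behind the 17 collagens were few and unevenly spread over nuclei. Together they gave 286, 32 and 622 counts at 0.05% and 894, 98 and 1377 counts at 0.5%. The nucleus with most of these counts was pharyngeal muscle-like, of cluster 11 and uterus-like at 0.05%. At 0.5% it was of cluster 6, of cluster 6 and intestine-like. By contrast, col-138, col-175, col-73, col-71 and dpy-4 were among the top 10 genes of cluster 17, which is epidermis-like. Which nuclei carried the difference was not tested. The 10 nuclei with most counts of the 17 genes held 14.7% to 48.98% of these counts in a library. Without those 10 nuclei, the summed level was 36.5, 13.3 and 59.4 CPM at 0.05% and 54.1, 41.0 and 132 CPM at 0.5%, on raw library totals, compared with 42.7, 25.0 and 111 CPM and 96.6, 80.4 and 224 CPM with them. In F3 all 17 had a fitted difference below 0, between -2.25 and -0.37, and 97 of the 101 tested collagens did (median -0.49). The test of the F3 minus F1 difference called 0 of 13694 genes, so an opposite effect of the dose in the 2 generations was not shown for any collagen.

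**Figure D4:**
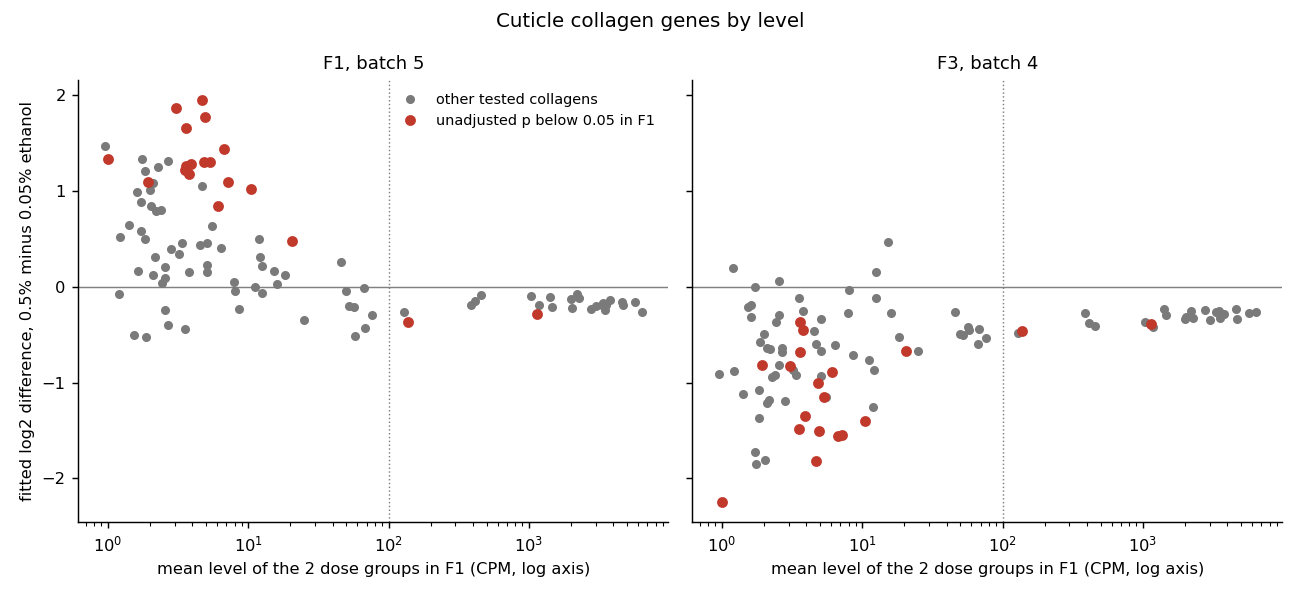
Fitted log2 difference between 0.5% and 0.05% ethanol (vertical axis) against the mean F1 level of the 2 dose groups (CPM, log axis) for the 101 tested cuticle collagen genes, in F1 of batch 5 (left) and F3 of batch 4 (right). Red points have an unadjusted p below 0.05 in F1 and the dotted line marks 100 CPM; to its right the 25 F1 values all lie below 0, and to its left 59 of 76 lie above 0 in F1.

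Other gene groups moved little. Muscle contractile genes had 27 tested members, of which 25 were below 0, with a median of -0.17 and 0 calls or unadjusted p below 0.05 in edgeR's test. act-4, an actin of muscle, averaged 2678 ± 722 and 2254 ± 449 CPM, and unc-54, the major myosin heavy chain, 2123 ± 583 and 1823 ± 188 CPM (SD, n = 3 each). The pairs disagreed: the summed level of the list was 28946 and 21737 CPM in number 1 and 24654 and 18148 CPM in number 3, higher at 0.05%, but 12381 and 15437 CPM in number 2. Eggshell genes had 18 of 20 members below 0 with a median of -0.12. The permeability barrier genes perm-2 and perm-4 averaged 1993 ± 1004 and 2875 ± 260 CPM at 0.05% and 1493 ± 469 and 2392 ± 377 CPM at 0.5%, and their intervals included 0. cpg-9 was the eggshell gene with an unadjusted p below 0.05 (log2 -0.41, SE 0.14; edgeR adjusted p = 1.0), at -0.24 without number 1 of 0.5% or without replicate number 1.

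Yolk proteins, made in the intestine for the oocytes, had 6 tested members with a median of -0.018, and vit-6 averaged 13416 ± 1078 CPM at 0.05% and 12827 ± 1339 CPM at 0.5%. Argonaute and small RNA inheritance genes (29 tested, median 0.017) and chromatin methylation regulators (47 tested, median -0.011), both known for carrying gene states between worm generations, had 0 calls and 0 genes at an unadjusted p below 0.05 in edgeR's test. Neuropeptide genes had 54 tested members above 0 and 65 below, with a median of -0.085, 3 higher and 4 lower at an unadjusted p below 0.05, where 1.0% and 1.32% of all tested genes were. nlp-27 averaged 729 ± 81.5 and 626 ± 174.6 CPM, and nlp-77 1759 ± 932 and 1500 ± 558 CPM. Cytosolic ribosomal proteins had 66 of 77 tested members below 0, but their median was only -0.067. Over all 29 lists edgeR called 0 members. Of the 58 genes that are the 2 most abundant members of each list, 54 lay within 0.3 of 0 on the log2 scale. Of these 58 genes, 45 were below 0 and 13 above.

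Single classes of nuclei were tested last, as a change in 1 cell type may be lost in a sum over the worm. Sums per library of 6 named classes and 7 unnamed clusters gave 69877 gene and class pairs, of which edgeR called 10 (0.0143%), 6 higher and 4 lower at 0.5% ethanol; 2123 pairs (3.04%) had an unadjusted p below 0.05. The calls rested on the replicate block: without it 0 were called. The count was 2 without replicate number 1 and 4 without number 2, whose libraries were the shallow ones. Leaving out single libraries gave 6 calls without number 1 of 0.05%, 17 without number 2 and 27 without number 3 of that dose, and 29 without number 1 and 33 without number 3 of 0.5%. Of the 10 pairs themselves, 2, 8 and 5 stayed called without numbers 1, 2 and 3 of 0.05%. Without these numbers of 0.5%, 3, 7 and 6 of the 10 did. The remaining calls in those refits were other pairs. After the data were seen, the nucleus with most counts of each called gene was also left out, and then 1 of the 10 pairs remained called. The other 9 kept their sign; the log2 difference went from 1.18 to 1.15 for Y62E10A.13, from 1.44 to 1.22 for C14C6.5, from -1.69 to -1.47 for Y51H4A.7 and from 2.46 to 2.11 for nlp-16. It moved further for inx-8 (-2.21 to -1.54), C44B7.5 (-2.07 to -1.43), ule-2 (-1.33 to -0.96), lury-1 (2.02 to 0.70) and dao-2 (4.05 to 1.35). Each of these 9 also missed the threshold with at least 1 single library left out. Without the largest nucleus, their adjusted p in edgeR's test lay between 0.189 and 1.0.

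That pair was pks-1 in cluster 11, an unnamed cluster of 58 to 269 nuclei a library. pks-1 encodes a polyketide synthase known from the canal-associated neurons. Its level in the cluster was 60.6, 77.8 and 7.13 CPM at 0.05% and 120, 2179 and 1033 CPM at 0.5%, from 17, 4 and 1 counts and 37, 97 and 135 counts. The groups did not overlap, and the log2 difference was 3.63 (SE 0.42; edgeR adjusted p = 5.95e-10). The pair of number 1 differed far less than the others, and without replicate number 2 in all groups the pair was not called, whereas it was called with each of the 6 libraries left out in turn. Without the replicate block its log2 difference was 4.54 (edgeR adjusted p = 1.0). Counts came from 29 nuclei of the cluster in the 6 libraries, the largest with 57. Without that nucleus alone the difference was 3.20 (edgeR adjusted p = 2.78e-07). The largest nuclei of the other libraries stayed in. At 0.5%, 9, 6 and 6 nuclei held counts, and the largest held 25 of 37, 57 of 97 and 56 of 135. Water stood at 109, 89.9 and 295 CPM in the cluster on raw totals, with 42 of 53 counts of number 3 in 1 nucleus. In whole libraries pks-1 was level, at 88.7 CPM and 98.4 CPM on average (log2 0.13), and neuron markers in cluster 11 summed to 71.1 to 145 CPM at 0.05% and 115.9 to 181 CPM at 0.5%. Uterus markers there summed to 1067 to 2112 CPM and 2297 to 2435 CPM, and the part of either list in the call was not tested. pks-1 overlaps C41A3.2 on the other strand. Y62E10A.13 was also called in cluster 11, at 363, 2413 and 1312 CPM against 1220, 2695 and 4100 CPM (log2 1.18, SE 0.25; edgeR adjusted p = 0.0364), and was spread over 351 nuclei.

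In pharyngeal muscle-like nuclei the called genes encode neuropeptides. lury-1, a peptide gene of pharyngeal neurons that acts on feeding, read 45.2, 0 and 67.3 CPM against 136, 50.9 and 360 CPM (log2 2.02, SE 0.36; edgeR adjusted p = 0.0156). A single nucleus held 143 of its 266 counts. nlp-16 read 28.8, 78.5 and 0 CPM against 150, 67.9 and 83.3 CPM, with 1 pair going the other way (log2 2.46, SE 0.45; edgeR adjusted p = 0.0172). Across the neuropeptide list, 44 of 60 genes tested in this class were above 0, with a median of 0.51. At an unadjusted p below 0.05 in edgeR's test, 20 were higher and 1 lower. Such a p, in either direction, was held by 4.38% of all genes of the class. Markers of neurons moved in the same direction: all 5 tested of 8 were above 0, and the 8 summed to 539 to 646 CPM at 0.05% and 769 to 1118 CPM at 0.5%, beside 2767 to 3819 CPM and 2045 to 3319 CPM for pharyngeal muscle markers. A weak gene passes the filter only where some libraries count it. The counts of both lists thus describe the genes that passed and are no test. The part of neuronal RNA in the lury-1 and nlp-16 calls was not tested.

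In neuron-like nuclei, inx-8 and C44B7.5 were lower. inx-8, an innexin gene of the gonadal sheath and 1 of the 4 sheath markers used here, read 217, 102 and 114 CPM at 0.05% and 41.5, 17.7 and 32.1 CPM at 0.5%. The groups did not overlap (log2 -2.21, SE 0.33; edgeR adjusted p = 0.0156). Water, at 67.0, 32.1 and 22.1 CPM, lay near the higher dose. The 4 sheath markers together summed to 171 to 351 CPM in neuron-like nuclei at 0.05% and to 75.2 to 155 CPM at 0.5%. Pharyngeal muscle markers there summed to 166 to 234.9 CPM and 83.9 to 85.9 CPM, and the part of either list in the call was not tested. C44B7.5 read 1760, 266 and 810 CPM against 237, 266 and 207 CPM (log2 -2.07, SE 0.31; edgeR adjusted p = 0.0156), with 626 of its 1423 counts in 1 nucleus and no difference in the pair of number 2; without replicate number 1 the difference was -1.33 and not called. In whole libraries inx-8 averaged 124 CPM and 99.6 CPM (log2 -0.32). Both genes were among the top 10 genes of cluster 18, an unnamed cluster whose best list was gonadal sheath. Outside neuron-like nuclei, C44B7.5 stood at 870, 314 and 863 CPM at 0.05% and 469, 537 and 851 CPM at 0.5% on raw totals. These levels were above the neuron-like ones except in number 1 of 0.05%. The part of such RNA in the C44B7.5 call was not tested.

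The other called pairs were in muscle and in unnamed clusters. C14C6.5 was higher in body wall muscle-like nuclei, at 36.1, 28.5 and 36.7 CPM against 65.9, 90.4 and 144 CPM without overlap (log2 1.44, SE 0.30; edgeR adjusted p = 0.0418), with counts in 113 nuclei. It was among the top 10 genes of cluster 16, which is intestine-like, and in each of the 6 libraries its level was higher in the nuclei outside the muscle class, at 66.1 to 153 CPM at 0.05% and 106 to 194 CPM at 0.5% on raw totals. Intestine markers in body wall muscle-like nuclei summed to 8047 to 10226 CPM at 0.05% and 10030 to 10432 CPM at 0.5%, and their part in the call was not tested. ule-2, a uterine lumen gene, was lower in cluster 6, at 928, 304 and 612 CPM against 218, 189 and 336 CPM (log2 -1.33, SE 0.23; edgeR adjusted p = 0.0254). A single nucleus held 299 of its 631 counts at 0.05% in number 1 and another 183 of 508 in number 3, while the share of nuclei with a UMI was 48.0%, 32.6% and 43.3% at 0.05% and 43.9%, 30.8% and 45.9% at 0.5%. The difference was -0.77 without number 1 of 0.5% and -0.81 without replicate number 1, and was then not called. Uterus markers summed to 3941 to 6138 CPM and 3389 to 3764 CPM in that cluster, and their part in the call was not tested. Y51H4A.7, which the current annotation names uroc-1, a urocanate hydratase of histidine breakdown, was lower in cluster 13, at 425, 378 and 166 CPM against 111, 170 and 46.4 CPM (log2 -1.69, SE 0.32; edgeR adjusted p = 0.0291). dao-2 in cluster 6 rested on 1 nucleus, which held 222 of its 259 counts, and read 2.94, 11.7 and 7.23 CPM against 239, 0 and 20.0 CPM (edgeR adjusted p = 0.0156). Germline-like nuclei, the best counted class with 350 to 1571 nuclei a library, had 0 of 8622 genes called in edgeR's test and 136 (1.58%) at an unadjusted p below 0.05, and 78.3% of their intervals lay within log2 -1 to 1.

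**Figure D5:**
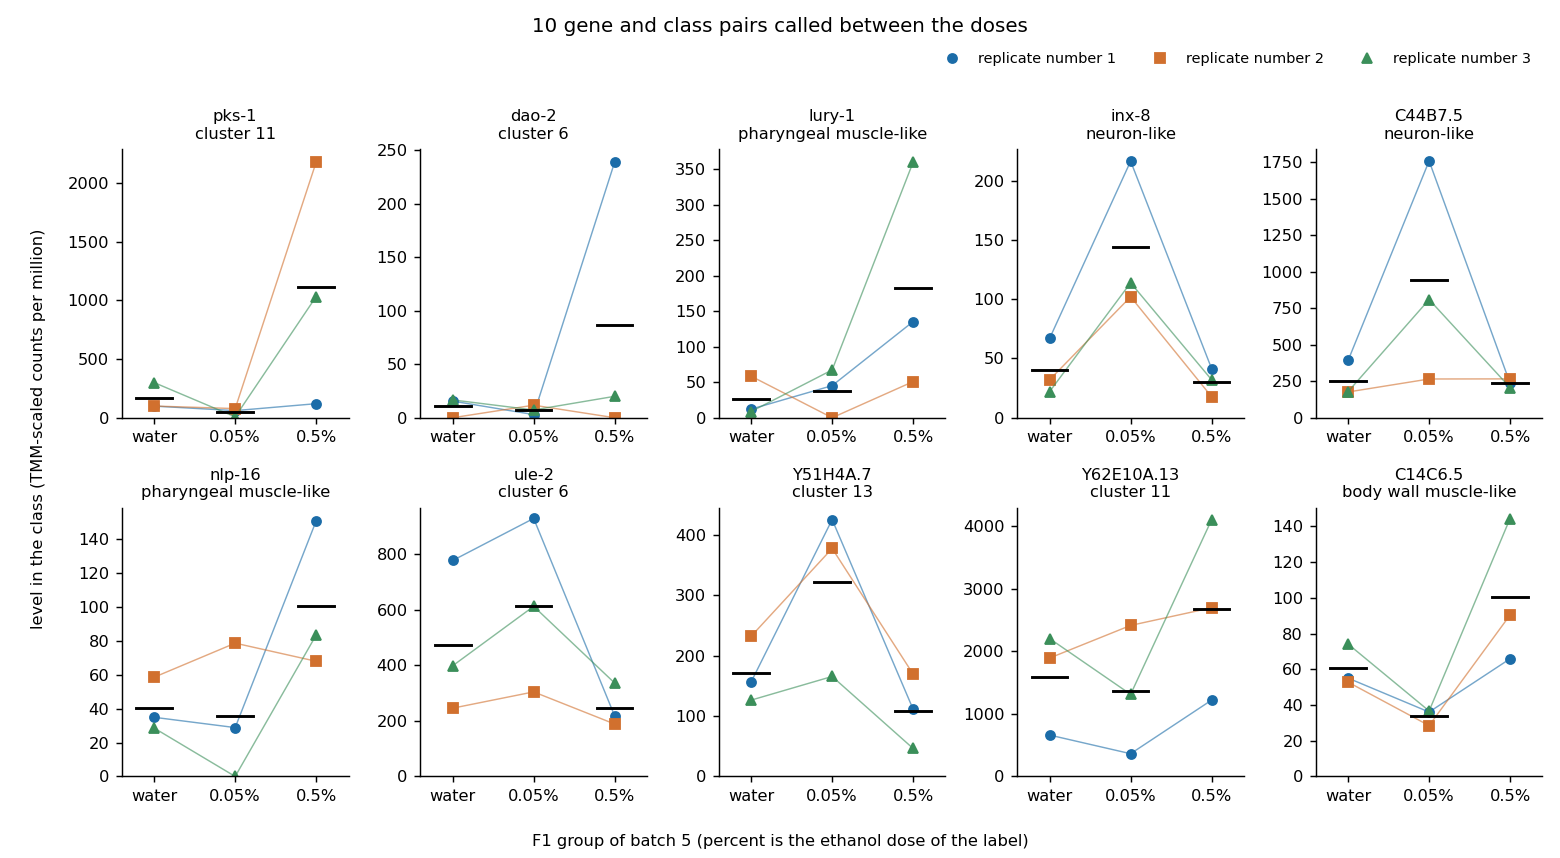
Levels (TMM-scaled CPM within the class, linear axes from 0) of the 10 called gene and class pairs in the water, 0.05% and 0.5% ethanol F1 libraries of batch 5. Points are libraries, lines join replicate numbers and black bars are means of 3 libraries; for pks-1 and dao-2 the 0.5% mean is set by 2 libraries and 1 library, and for inx-8 the 0.05% libraries all lie above those of 0.5%.

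The same dose comparison in F3 libraries of batch 4 called 0 of 13011 genes (0.0%) in edgeR's test, with 2008 (15.4%) at an unadjusted p below 0.05. Generation and batch cannot be told apart here, since the F1 and F3 libraries used lie in different batches. Of the 10 F1 genes given above, csp-1 (log2 0.76, SE 0.31) and hsp-12.3 (-0.47, SE 0.17) had the same sign and an unadjusted p below 0.05 in F3, whereas pept-1 stood at -0.43 (SE 0.11) and D1054.18 at -1.55 (SE 0.37). For hsp-70, hsp-16.41 and hsp-16.2 the F3 values were -1.26, -0.96 and -1.10, and the heat-shock list had a median of -1.03 with 7 of 8 below 0. None of the F3 minus F1 differences passed: 842 of 13694 genes (6.15%) had an unadjusted p below 0.05 and 0 (0.0%) an adjusted one, with pept-1 at a difference of -1.08 (SE 0.18; edgeR adjusted p = 0.121). In classes, 0 of 81651 differences (0.0%) were called by edgeR and 4002 (4.9%) had an unadjusted p below 0.05; pks-1 in cluster 11 stood at -0.72 (SE 0.75) in F3.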

How the data were processed

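Libraries were deposited by the authors as raw UMI counts per gene and nucleus, filtered to nuclei before deposit. The matrix headers name a software version of 3.0.2, and the submitters' processing notes name Cell Ranger and ce10. Strand use is not given in the sources used here. Gene names are those of the files; strand and overlaps came from the WBcel235 annotation, matched by identifier for 46817 of 46904 features. No coordinates are given, since the builds differ.

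Whole-library values are sums over all nuclei, and class values are sums over the nuclei of a class in 1 library after removal of 2168 of 85180 nuclei called doublets (437 of the 16440 in the 6 libraries). Nuclei of all 31 libraries were clustered with leidenalg 0.10.2 on 30 principal components of 2000 genes corrected for library. A cluster was named where at least 3 markers of a list were raised (1.5 times, in 10% of nuclei), their list's mean log2 fold was at least 0.8 and the next list lay at least 0.5 below. Of 23 clusters 7 stayed unnamed by this rule, and names may differ from those of the study.

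Differences were estimated in R 4.3.3 with edgeR 4.0.16 (TMM factors, filterByExpr, quasi-likelihood test) over the 9 F1 libraries of batch 5, with dose and replicate number, which left 4 residual degrees of freedom. Calls needed a Benjamini-Hochberg adjusted p below 0.05 over all genes or all pairs. A class needed 20 nuclei a library in both doses of at least 2 numbers; in cluster 21, 1 library of 0.5% fell short and was left out. Cluster shares used the same model with totals of nuclei as library sizes, and class shares an exact permutation test without the block. The script was tested on simulated data.

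The replicate number was used as a block because the rule of the comparison takes it as the pair. Deviations from group means agreed within numbers: over 6873 genes, r between the doses was 0.696, 0.694 and 0.636 for numbers 1, 2 and 3. For libraries of different dose and different number, r ran from -0.659 to 0.296. The labels do not say what pairs them. Named genes were the called ones with at least 20 CPM in 1 group and the same sign in 3 pairs, filled to 5 a direction by p where fewer were called; for lists, called members and the 2 most abundant. sodh-1, slo-1, vit-6, cpg-9, hsp-70, hsp-16.2, the named weak collagens and the lower collagens, and the called pairs outside the rule (dao-2, C44B7.5, nlp-16), were chosen after their values were seen. The members, lists and markers were chosen with earlier results of these data known. Alternatives were no block, RLE factors, no filter, the 6 libraries alone, DESeq2 1.42.0, other treatments of doublets, ribosomal RNA genes and class size, and leaving out libraries or numbers.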

Additional observations from a re-analysis of the deposited data

How the results depend on the processing

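Whole-library calls stayed at 0 under the alternatives run, except that 29 of 22305 genes were called without the filter on low counts. Among the whole-library genes followed in the refits, dpy-4, col-175, nlp-20 and C41G11.1 were called in that setting. The F3 minus F1 difference also stayed at 0, except for 224 calls without that filter. Cluster shares gave 0 calls throughout; the test of class shares could not have given one. The 10 class calls became 0 with no replicate block, 72 with no filter, 24 with only the 6 libraries and the replicate block, 25 with doublets kept and 1 without the nucleus holding most counts of each called gene; they ranged from 2 to 33 when libraries or replicate numbers were left out, and were 11 with RLE factors and 10 with at least 50 nuclei. These are counts of all calls in a refit, which may hold pairs other than the 10. The cause of these shifts was not tested. No called pair changed sign in 157 refits, and 78 of these missed the threshold. Without the block, unadjusted p below 0.05 fell to 59 genes in whole libraries. Of 464 refits of 29 whole-library genes 9 changed sign, all with a library or number left out: sodh-1 ranged from -0.22 to 0.12, alh-8 from -0.14 to 0.012, unc-54 from -0.44 to 0.033 and nlp-77 from -0.32 to 0.011. The 3 pairs, the 2 shallow libraries of number 2 and the few nuclei per class limit what could be seen: median SE was 0.20 for all genes and 0.14 for those of at least 20 CPM, but 0.22 to 0.61 in classes. All 90 refits of class share differences moved by less than 1 SD.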

Other observations

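Some lists leaned one way within a class without a call, given here as values. They were picked for this leaning from 29 lists and 13 classes or clusters, after the values were seen. In cluster 21, 13 of 14 tested mitochondrially encoded genes were above 0 with a median log2 difference of 1.14, and 8 had an unadjusted p below 0.05, as 2.36% of all genes tested there did; the 0.5% group had 2 libraries there. Cytosolic ribosomal protein genes were above 0 in 67 of 77 cases in neuron-like nuclei (median 0.14) but in 18 of 77 in germline-like nuclei (median -0.097). Cytochrome P450 and UDP-glucuronosyltransferase genes, which modify foreign compounds, were above 0 in 40 of 47 cases in pharyngeal muscle-like nuclei (median 0.34), with 1 at an unadjusted p below 0.05, beside 4.38% of that class. C-type lectin genes were below 0 in 19 of 21 cases in cluster 20 (median -0.39), with 2 at an unadjusted p below 0.05, beside 3.43% of that cluster. In body wall muscle-like nuclei, 21 of 23 muscle contractile genes were below 0 (median -0.31) and 6 had an unadjusted p below 0.05, beside 3.69% of that class. Genes of 1 list share libraries and nuclei, so these counts are descriptions. Between all tested genes of each class the median lay between -0.050 and 0.018.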
